A study of Mus musculus with 8 samples.

Results

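The dual-specificity MAP kinase phosphatases were followed in skin fibroblasts of mice that differ in their mitochondrial DNA. The group was defined by name as the 10 genes Dusp1, Dusp2, Dusp4, Dusp5, Dusp6, Dusp7, Dusp8, Dusp9, Dusp10 and Dusp16, and every array probe that carried one of these symbols was taken. 17 of the 25697 probes on the array met this rule. They covered 9 of the 10 genes, and no probe was found for Dusp5. The rule itself used no measured value, but the members were chosen with earlier results of these data known.

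The study hybridised RNA from primary skin fibroblasts to 8 Illumina MouseRef-8 v2.0 BeadChips, 1 array per mouse, and asked how a variant in a mitochondrial gene changes the transcriptome of these cells. The 4 Nd2 mutant mice, of which numbers 28 and 32 were male and numbers 34 and 35 female, belonged to the conplastic strain C57BL/6J-mtALR/LtJ, which carries a variant of the mitochondrial Nd2 gene, a subunit of complex I of the respiratory chain. The 4 control mice, numbers 16 and 17 (male) with numbers 15 and 37 (female), belonged to the conplastic strain C57BL/6J-mtAKR/J. A conplastic strain has the mitochondrial DNA of one strain on the nuclear genome of another, so all 8 mice shared the C57BL/6J nuclear background and no mouse had the mitochondrial DNA of C57BL/6J. All mice were 12 months old, and the labels name no treatment. Fibroblasts were grown from skin in culture, so the values describe cultured cells rather than skin itself.

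The phosphatases of this family remove phosphate from both the threonine and the tyrosine of the activation loop of MAP kinases and so switch these kinases off. They are usually sorted by where they act and on which kinase. One set is nuclear and is induced rapidly by growth factors and stress, a set in the cytoplasm is selective for ERK, and the remaining members act mainly on the stress kinases JNK and p38. Several of their genes are transcribed in response to the pathway they shut down, which makes them part of its negative feedback.

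Promoters of the group were read from RefSeq on build GRCm38.p6 to show how its members differ before any expression value is given. 8 of the 10 genes had an entry, all but Dusp4 and Dusp9. Each window of 250 bases before to 50 bases after the start was searched on both strands for the cAMP response element TGACGTCA, for its core TGACG, which each full element also contains on both strands, for the AP-1 site TGANTCA and for the CArG box bound by serum response factor. The full element was found in 2 of the 8 windows, Dusp1 and Dusp8, and in 1.79% of all 32851 windows. The core was in 5 of the 8 (Dusp1, Dusp2, Dusp5, Dusp8 and Dusp16) and in 20.8% of all windows. The AP-1 letters were in 0 of 8 against 7.81% of all, and the CArG box was in Dusp5 alone, where 2 copies lay next to each other, against 1.63% of all. Below are the 250 bases before the start of Dusp1 (chr17:26508473-26508722, minus strand) and Dusp8 (chr7:142095285-142095534, minus strand), shown because they hold the full element, and of Dusp6 (chr10:99262981-99263230, plus strand), the member with the largest difference between the sexes, which holds none of these letters. Sequences run 5′ to 3′ along the gene and end at the base before the start. Capitals mark the cAMP response elements and, in Dusp1, a further core.
Dusp1: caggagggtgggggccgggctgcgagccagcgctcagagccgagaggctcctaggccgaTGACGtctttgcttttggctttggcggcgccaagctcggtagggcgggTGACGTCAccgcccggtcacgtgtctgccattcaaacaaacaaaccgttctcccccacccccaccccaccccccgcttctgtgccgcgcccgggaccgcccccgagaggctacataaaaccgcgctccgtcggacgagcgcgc
Dusp8: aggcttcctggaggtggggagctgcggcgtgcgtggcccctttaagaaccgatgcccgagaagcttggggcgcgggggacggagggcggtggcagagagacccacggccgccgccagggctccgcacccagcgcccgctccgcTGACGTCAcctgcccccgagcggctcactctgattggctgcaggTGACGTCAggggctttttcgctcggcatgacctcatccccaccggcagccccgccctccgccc
Dusp6: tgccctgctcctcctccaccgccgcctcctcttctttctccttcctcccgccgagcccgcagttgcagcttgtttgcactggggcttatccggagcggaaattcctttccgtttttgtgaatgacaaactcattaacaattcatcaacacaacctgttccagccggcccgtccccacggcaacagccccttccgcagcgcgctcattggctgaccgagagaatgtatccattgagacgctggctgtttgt
The element of Dusp1 lay 143 to 136 bases before the start, with the further core at 191 to 187. Those of Dusp8 lay at 107 to 100 and at 63 to 56. A match describes the letters only and is no measurement of binding.

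An intensity here is the brightness of a probe after the authors' quantile normalization and background subtraction, on a linear scale. Detection meant a deposited detection p-value under 0.01, and a probe entered the tests when all 4 arrays of either strain detected it. 11 of the 17 probes, covering 7 genes, passed, and all 11 were detected on all 8 arrays. The other 6 probes were detected on no array. They were both probes of Dusp2, the probe of Dusp9, and 1 further probe each of Dusp4, Dusp6 and Dusp16, genes of which another probe was detected. For Dusp2, a nuclear phosphatase best known from lymphocytes, and Dusp9, which is selective for ERK and best known from placenta, no level above background was thus measured in these fibroblasts. Differences were computed on log2(intensity + 16), which understates the change of dim probes, and tested with limma.

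Between the strains, no member passed the adjusted threshold. At an adjusted p under 0.05, 0 of the 11 member probes and 0 of all 10414 tested probes differed, a background of 0.0%, with limma and Benjamini-Hochberg adjustment. At an unadjusted p under 0.05, 1 of 11 member probes was called, that of Dusp1, against 7.63% of all tested probes. The Nd2 mutant mean lay below the control mean for 11 of 11 member probes, against 49.8% of all tested probes, but for 7 of 11 without Nd2 mutant mouse 28, 9 without control mouse 16, and 10 with array weights, without Nd2 mutant mouse 32, without mouse 35 or without control mouse 15. The median log2 difference of the members was -0.34, from -0.81 to -0.06, beside a median over all tested probes of 0.00. For 0 of 11 member probes were the 4 mutant and the 4 control values without overlap, against 4.37% of all tested probes. The 11 probes are not independent, since 4 genes had a pair of probes.

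**Figure D1:**
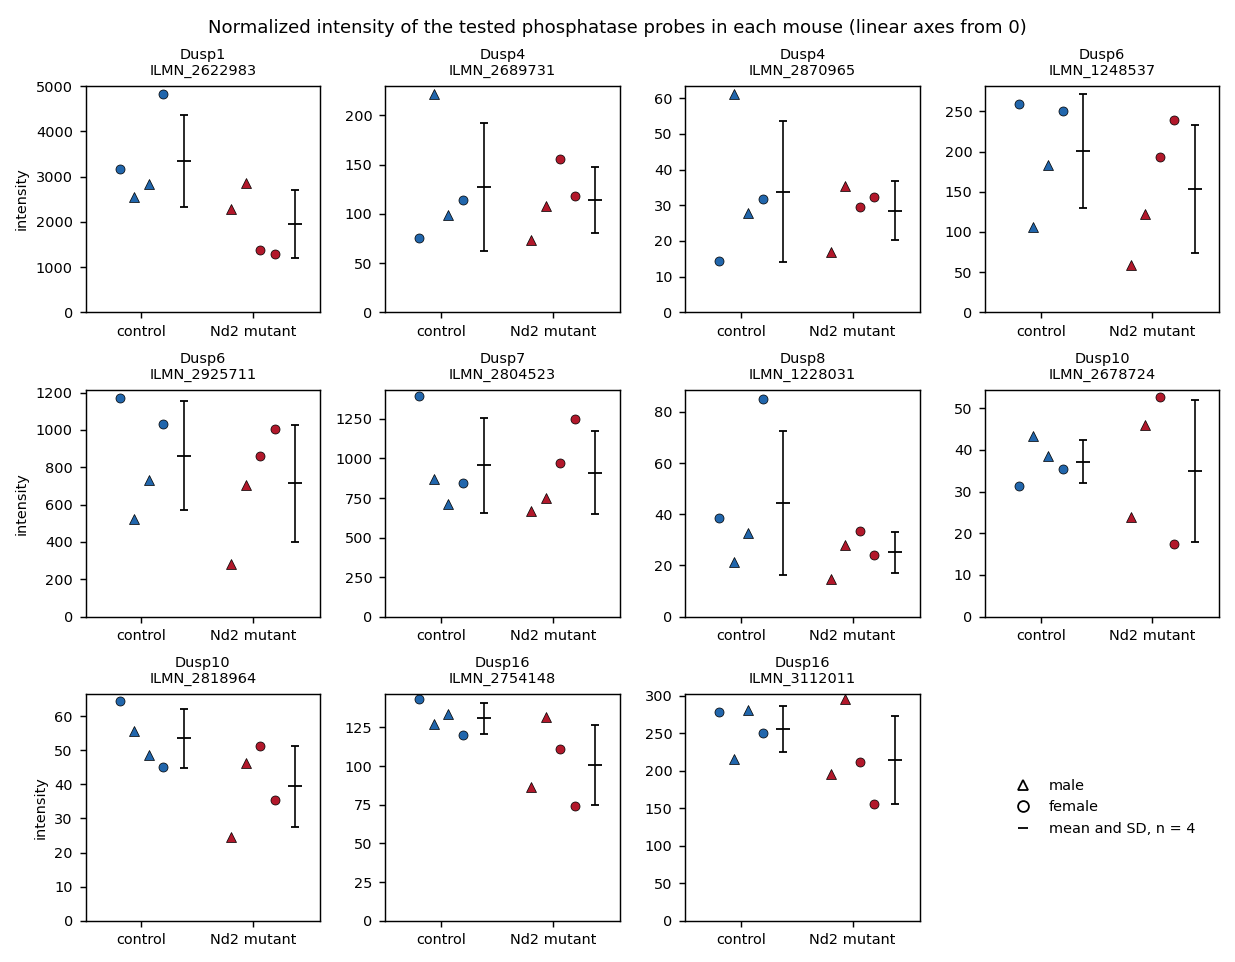
Normalized intensity (linear axes starting at 0) of each tested phosphatase probe in each of the 8 mice, with control mice in blue and Nd2 mutant mice in red, triangles for males and circles for females, and the mean with its SD (n = 4) beside each group. The groups overlap in all 11 panels; for Dusp1 the female mutant mice, at 1369 and 1282, lie below all 6 other mice.

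Among the nuclear inducible members, Dusp1 had the largest strain difference. Dusp1 encodes a phosphatase of p38, JNK and ERK that many stresses and glucocorticoids induce. Its probe read 2286, 2861, 1369 and 1282 in Nd2 mutant mice 28, 32, 34 and 35, and 3164, 2541, 2843 and 4826 in control mice 15, 16, 17 and 37. The female mutant mice were the lowest of all 8, the female control mice were the highest, and the males of both strains lay between, so that the strains overlapped through the males. The mean was 1949 ± 758 (SD, n = 4) in mutant and 3343 ± 1021 (SD, n = 4) in control mice. The log2 difference was -0.81 (95% interval -1.44 to -0.18), 0.57 times the control level, with an adjusted p of 0.639 in limma and an unadjusted p of 0.0171. The exact permutation test of 4 against 4 gave a 2-sided p of 0.0857, where the smallest possible is 0.0286. Leaving out 1 mouse at a time gave differences from -1.02 to -0.62, and the unadjusted p passed 0.05 without mutant mouse 34 (0.0543), without mutant mouse 35 (0.0546) and without control mouse 37 (0.0521).

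The strain difference of Dusp1 was also taken within each sex. It was -1.55 (SE 0.25, 95% interval -2.13 to -0.97) in females, a level 0.342 times that of the controls, and -0.07 (SE 0.25, 95% interval -0.65 to 0.51) in males. In females, the limma p was 0.000231 before and 0.267 after adjustment. Without control mouse 37, which had the highest value, the difference was -1.25. That fit left mouse 15, whose array stood apart from the rest, as the only female control, so no p-value is given. Under the alternatives with all 8 mice, the adjusted limma p was 0.205 or higher. 3 of the 10414 tested probes (0.0288%) passed the adjusted threshold in females, none of them a member, and 1 of 11 member probes against 5.48% of all tested probes passed the unadjusted one. Subtracting the female from the male difference gave an interaction of 1.48 (SE 0.36, 95% interval 0.66 to 2.30), with an unadjusted limma p of 0.00295 and an adjusted p of 0.9999. 0 of 11 member probes passed the adjusted threshold for this interaction, against 0.0096% of all tested probes, and 1 of 11, Dusp1, passed the unadjusted one, against 1.77%. The interaction of Dusp1 stayed between 1.17 and 1.78 when single mice were left out. Each group of strain and sex held 2 mice, and each of these fits left a single one in 1 group. That mouse was assumed to vary like the others, so only the size is given.

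Among the keratinocyte markers, Krt14 moved with this pattern, with an unadjusted limma p of 0.0542 for its interaction. The summed intensity of the keratinocyte markers was 196 and 224 in the 2 female mutant mice and 325 to 1187 in the other 6 mice, with Krt14, a keratin of basal epidermis, at 38.3 and 77.9 against 166 to 1007. Without Krt14, the sum was 158 and 146 in the female mutant mice and 126 to 180 in the others, so the other markers did not move with it. Of the 8 keratinocyte marker genes, 7 had a probe and 2, Krt14 and Krt10, were detected on all 8 arrays. Krt10, a keratin of the upper epidermis, went the other way, with an interaction of -0.40 against 2.63 for Krt14. Of 7 tested macrophage probes, 7 had an interaction below 0 (median -1.17). The summed intensity of the macrophage markers was 2102 in female mutant mouse 35, but 470 in female mutant mouse 34. Mouse 34 thus lay among the other 6 mice, at 275 to 667. Of 5 tested endothelial probes, 4 had one above 0 (median 0.79), beside a median of -0.03 over all tested probes. The part of Krt14-expressing cells, macrophages or endothelial cells in the values of Dusp1 was not tested. Fewer cells of a type and less RNA per cell cannot be told apart in these samples. All 10 fibroblast markers were detected on all 8 arrays, so the cells carried the markers of their label.

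Dusp4, a nuclear phosphatase induced by growth factors, had 2 tested probes. ILMN_2689731 read 73.8, 108, 156 and 118 in mutant mice 28, 32, 34 and 35, and 75.3, 222, 98.8 and 114 in control mice 15, 16, 17 and 37. Control mouse 16 was the highest of all 8 and the other 7 mice were mixed. The difference was -0.09 (95% interval -0.73 to 0.56), with 0.47 (95% interval -0.37 to 1.32) in females and -0.65 (95% interval -1.49 to 0.20) in males. The order of the sexes was the opposite of that of Dusp1, and the interaction was -1.12 (95% interval -2.32 to 0.08), with an unadjusted limma p of 0.0628 and an adjusted p of 0.9999. The dimmer probe, ILMN_2870965, ranged from 16.8 to 35.5 in mutant and from 14.4 to 61.1 in control mice, with control mouse 16 again the highest and a strain difference of -0.10 (95% interval -0.69 to 0.48).

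Dusp6, in the cytoplasm, is selective for ERK and is a standard readout of ERK activity, since ERK signalling induces it. The probe ILMN_2925711 read 283, 706, 859 and 1006 in mutant mice 28, 32, 34 and 35, and 1170.3, 521, 729.7 and 1031 in control mice 15, 16, 17 and 37. The 4 females, at 859 to 1170.3, all lay above the 4 males, at 283 to 729.7, while the strains overlapped over most of their range. The strain difference was -0.34 (95% interval -1.18 to 0.49) and became 0.04 without mutant mouse 28, the lowest. The probe ILMN_1248537 read 59.2, 122, 194 and 239.5 in the mutant mice and 259.6, 107, 184 and 251 in the control mice, in the same order. Its 4 females, at 194 to 259.6, again lay above its 4 males, at 59.2 to 184, and its strain difference was -0.42 (95% interval -1.26 to 0.41). The adjusted limma p of the strain difference was 0.796 for the former and 0.744 for the latter probe.

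Dusp7, a second ERK-selective phosphatase of the cytoplasm, read 667, 749, 972 and 1252 in mutant mice 28, 32, 34 and 35, and 1397, 872, 709.6 and 845 in control mice 15, 16, 17 and 37. Both strains covered nearly the same range, and the highest value of each belonged to a female. The strain difference of -0.06 (95% interval -0.61 to 0.48) was the smallest of the 11, and its sign turned with array weights, to 0.10.

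Of the members that act mainly on JNK and p38, Dusp8 is known chiefly from brain and heart. Its probe read 14.8, 27.9, 33.6 and 24.1 in mutant mice 28, 32, 34 and 35, and 38.4, 21.2, 32.5 and 85.1 in control mice 15, 16, 17 and 37. Control mouse 37 was far above the others, as it was for Dusp1, and the remaining values were mixed. The strain difference was -0.47 (95% interval -1.09 to 0.15), and -0.19 without mouse 37. In females alone it was -0.73 (95% interval -1.50 to 0.03) and in males -0.21 (95% interval -0.97 to 0.55), with an interaction of 0.53 and an unadjusted limma p of 0.296.

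Dusp10, a phosphatase of JNK and p38 with roles in immune and epithelial cells, had 2 tested probes that did not give the same picture. ILMN_2818964 read 24.6, 46.3, 51.3 and 35.3 in mutant mice 28, 32, 34 and 35, and 64.5, 55.7, 48.6 and 45.2 in control mice 15, 16, 17 and 37. 2 mutant mice lay below all controls, and the difference was -0.35 (95% interval -0.75 to 0.06). ILMN_2678724 ranged from 17.3 to 52.6 in the mutant and from 31.4 to 43.4 in the control mice, and its difference was -0.12 (95% interval -0.63 to 0.39).

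Dusp16, which shuttles between nucleus and cytoplasm and acts on JNK, also had 2 tested probes. ILMN_2754148 read 86.5, 132, 111 and 74.1 in mutant mice 28, 32, 34 and 35, and 143, 127, 134 and 119.8 in control mice 15, 16, 17 and 37. 3 of the 4 mutant mice lay below all 4 controls, and mouse 32 lay among them. The difference was -0.35 (SE 0.17, 95% interval -0.73 to 0.03), with an unadjusted limma p of 0.0658, an adjusted p of 0.639 and an exact permutation p of 0.0857. ILMN_3112011 read 196, 296, 212 and 155 in the mutant and 278, 216, 281 and 250.2 in the control mice, where mutant mouse 32 was the highest of all 8. Its difference was -0.26 (95% interval -0.68 to 0.15).

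4 genes had a pair of tested probes, which gave 2 readings of the same gene in each mouse. Over the 8 mice, the log2 values of the pair correlated at r = 0.97 (rho = 1) for Dusp6, with an exact permutation p of 2.48e-05 for r and 4.96e-05 for rho. They correlated at r = 0.91 (rho = 0.76) for Dusp4, with exact permutation p-values of 0.00355 and 0.0368, and at r = 0.91 (rho = 0.88) for Dusp16, with 0.00107 and 0.00724. For Dusp10, r was 0.61 (rho = 0.50, exact permutation p of 0.107 and 0.216). After Benjamini-Hochberg adjustment over these 4 relations, the exact permutation p of r was 9.92e-05 for Dusp6, 0.00473 for Dusp4, 0.00213 for Dusp16 and 0.107 for Dusp10, and that of rho was 0.000198, 0.049, 0.0145 and 0.216. Without the 2 mice farthest from the median, r was 0.90, 0.70 and 0.74 for Dusp6, Dusp4 and Dusp16 and -0.37 for Dusp10, so that the Dusp10 relation rested on those mice.

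**Figure D2:**
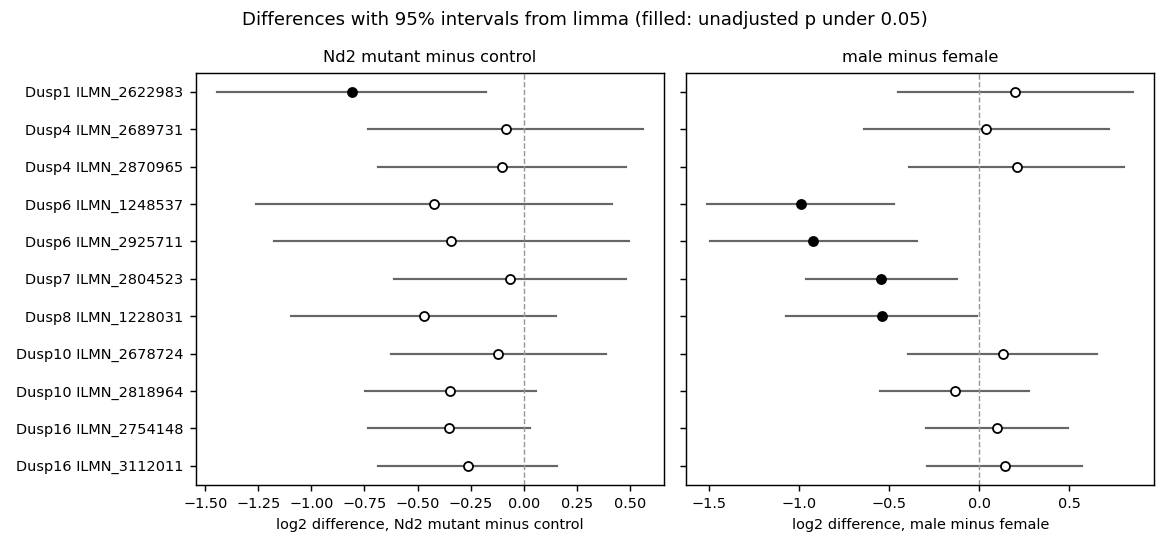
Log2 differences of the 11 tested phosphatase probes between Nd2 mutant and control mice (left) and between males and females with strain as a term (right), with 95% intervals from limma; filled points have an unadjusted p under 0.05. On the left all points lie below 0 and the interval of Dusp1 alone, -1.44 to -0.18, excludes 0; on the right the intervals of both Dusp6 probes, Dusp7 and Dusp8 lie below 0.

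The ERK-selective members differed more between the sexes than between the strains in size, a contrast of sizes that was not tested, and no sex difference passed the adjusted threshold. Males were compared with females with strain as a term in limma. 4 of 11 member probes (36.4%) passed an unadjusted p of 0.05, against 8.31% of all tested probes, and 0 of 11 passed the adjusted threshold, against 0.0192% of all. The 4 were both Dusp6 probes, Dusp7 and Dusp8, all lower in males. 5 of 11 member probes were lower in males, against 47.6% of all tested probes, and the median of the members was 0.04 beside 0.01 over all, so this was not a shift of the whole group. For 2 of 11, both of Dusp6, the 4 males and 4 females did not overlap, against 5.16% of all tested probes.

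Dusp6 was 0.528 times as bright in males as in females by ILMN_2925711, with means of 560.0 ± 207 (SD, n = 4) and 1017 ± 128 (SD, n = 4). This was a log2 difference of -0.92 (SE 0.26), with an adjusted limma p of 0.384. By ILMN_1248537 it was 0.504 times as bright, with means of 118 ± 51.4 (SD, n = 4) and 236 ± 29.3 (SD, n = 4), a log2 difference of -0.99 (SE 0.23) and an adjusted limma p of 0.317. The males lay lower within each strain, with log2 differences of -1.02 in mutant and -0.82 in control mice for the former probe and of -1.19 and -0.79 for the latter. The exact permutation test of 4 against 4 gave 0.0286 for both probes, the smallest p that it can give. With array weights, the adjusted limma p of ILMN_1248537 fell to 0.0448 at a difference of -0.79, and this was the only alternative under which a member passed the adjusted threshold for sex. How many of all tested probes passed with array weights is not given here.

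Dusp7 averaged 749.6 ± 88.4 (SD, n = 4) in males and 1117 ± 252 (SD, n = 4) in females, a log2 difference of -0.54 (SE 0.19) with an adjusted limma p of 0.515. Dusp8 averaged 24.1 ± 7.74 (SD, n = 4) in males and 45.3 ± 27.2 (SD, n = 4) in females, a log2 difference of -0.54 (SE 0.24) with an adjusted limma p of 0.585. The sexes overlapped for both. For Dusp1, Dusp4, Dusp10 and Dusp16 the differences lay between -0.13 and 0.21, with adjusted limma p-values from 0.856 to 0.975.

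Within the sexes, the strain difference was below 0 for 8 of 11 member probes in females, against 46.9% of all tested probes, and for 11 of 11 in males, against 52.8%. Without mutant mouse 28, however, it was below 0 for 5 of 11 in males, so that the count in males rested on this mouse, which was the lowest of the 4 mutant mice for 7 of the 11 probes. Without control mouse 17 it was 9 of 11. The 3 probes above 0 in females were both Dusp4 probes and Dusp7.

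No pair of members varied together past the adjusted threshold over the 8 mice, a number that leaves moderate relations hard to detect. With 1 probe per gene, 21 pairs of members were compared, and after Benjamini-Hochberg adjustment the smallest exact permutation p was 0.488 for r and 0.323 for rho. The highest r were those of Dusp1 with Dusp16 (r = 0.72, rho = 0.76, exact permutation p of 0.048 and 0.0368) and of Dusp6 with Dusp7 (r = 0.71, rho = 0.71, exact permutation p of 0.0462 and 0.0576). Without the 2 mice farthest from the median, r was 0.39 for the former and 0.84 for the latter pair. The highest rho was that of Dusp6 with Dusp8 (rho = 0.83, r = 0.68, exact permutation p of 0.0154 and 0.0853), where r without those 2 mice was 0.39. Dusp1 and Dusp8, which share the full cAMP response element in the promoters printed above, had an r of 0.60 and a rho of 0.62, with exact permutation p-values of 0.123 and 0.115.

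The kinases on which the phosphatases act were looked at next, from lists chosen with earlier results of these data known. 80 probes of these lists were tested, 0 passed the adjusted threshold between the strains, and 7 (8.75%) passed an unadjusted p of 0.05, close to the 7.63% of all tested probes, with 4 to 16 when single mice were left out (16 without control mouse 17). The share of all tested probes without single mice is not given, so that range has no background beside it. Of 13 probes of MAP kinases, 2 were higher and 1 was lower in the mutant at an unadjusted p under 0.05 in limma (23.1% in all), with a median difference of 0.09 beside 0.00 over all tested probes. By 1 of its probes, Mapk3, which encodes ERK1, read 26.5, 19.6, 43.7 and 29.6 in mutant mice 28, 32, 34 and 35 and 12.9, 19.7, 17.6 and 14.2 in control mice 15, 16, 17 and 37, a log2 difference of 0.49 (SE 0.17). This probe was detected on 7 of 8 arrays, all but that of control mouse 15, so it was tested only through the strain in which it was higher. Mapk11, which encodes p38 beta, ranged from 90.0 to 117 and from 107 to 212, a difference of -0.45 (SE 0.20). The adjusted limma p was 0.639 for both of these genes, and the strains overlapped for both.

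Of the 14 probes of MAP2K and MAP3K kinases, which phosphorylate the MAP kinases or the kinases above them, 0 passed an unadjusted p of 0.05 between the strains, and the smallest p-values were those of Map2k2 (difference -0.25, SE 0.14) and Araf (difference -0.31, SE 0.19). Of 13 probes of other phosphatases that act on MAP kinases, 2 were higher at an unadjusted p under 0.05 (15.4% beside 7.63% of all tested probes) and 10 had a difference above 0 (with 49.8% of all tested probes below 0), with a median of 0.19. The count above 0 was 9 with array weights, 9 to 11 without single mice, and 8 of 11 among probes detected on all 8 arrays. Ppp2r1a, the scaffold subunit of protein phosphatase 2A, read 682, 625, 666 and 599.9 in mutant mice 28, 32, 34 and 35 and 225, 315, 463 and 535 in control mice 15, 16, 17 and 37. All 4 mutant values lay above all 4 control values, with a difference of 0.79 (SE 0.24), an adjusted limma p of 0.639 and an exact permutation p of 0.0286, the smallest possible. Ppm1a, a metal-dependent phosphatase, ranged from 227 to 285 in mutant and from 102 to 248 in control mice, a difference of 0.57 (SE 0.25).

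Of 10 probes of atypical dual-specificity phosphatases, which lack the kinase-binding domain of the group, 0 passed an unadjusted p of 0.05 between the strains, and 2 did so for the interaction of strain and sex. Dusp14 read 13.0 and 8.17 in the female mutant mice and 21.9 to 44.1 in the other 6, with an interaction of 0.81 (SE 0.34), and Dusp23 read 139 and 136 in the female mutant mice and 77.8 to 119 in the others, with an interaction of -0.77 (SE 0.32). Dusp14 was not detected in mutant mouse 35, so it was tested only through the control strain, in which it was higher. Its interaction ranged from 0.41 to 1.46 on the log2 scale under the alternatives with all 8 mice. Of 10 probes of ERK feedback and ERK-induced transcripts, again 0 passed between the strains. For the interaction 1 (10.0%), Etv5, passed, against the same 1.77%. Etv5, an ETS factor downstream of ERK, read 57.6 and 63.3 in the female mutant mice and 16.2 to 37.7 in the other 6, an interaction of -0.96 (SE 0.31). The adjusted limma p of all 3 interactions was 0.9999.

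Immediate early genes are transcribed within minutes of a stimulus through the kinases that the group switches off, and Dusp1 is itself regulated in this way. Of 20 tested probes of 15 such genes, 2 (10.0%) were lower in the mutant at an unadjusted p under 0.05. This share was close to the 7.63% of all tested probes that passed in either direction. The 2 were Atf3, a stress-induced factor (difference -0.88, SE 0.36), and Srf, which binds the CArG box (difference -0.58, SE 0.20). Both had an adjusted limma p of 0.639. Atf3 was not detected in mutant mouse 34, so it was tested only through the strain in which it was higher. For the interaction, 5 of 20 (25.0%) passed an unadjusted p of 0.05, against 1.77% of all tested probes. 19 of 20 were above 0, 17 on the linear scale and 18 to 20 without single mice, with a median of 0.77 beside -0.03 over all tested probes.

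Fosb, an AP-1 subunit, read 121 and 73.8 in the female mutant mice 34 and 35, 827 and 1359 in the female controls 15 and 37, 1598 and 1720.2 in the male mutants 28 and 32, and 884 and 1224 in the male controls 16 and 17. The female mutant mice thus lay below the other 6 without overlap. Its strain difference in females was -3.28 (SE 0.31), 0.103 times the control level, with an adjusted limma p of 0.0226, and its interaction was 3.94 (SE 0.44), with an adjusted limma p of 0.0794. Atf3 read 2.52 and 15.9 in the female mutant mice and 46.3 to 65.7 in the other 6, an interaction of 1.74 (SE 0.38) that was 3.10 with 1 and 0.97 with 50 added before log2, with 1 of its values not above background. The interactions of Fos, Junb and Zfp36, the last an RNA-binding protein that destabilises cytokine transcripts, were 2.46 (SE 0.98), 1.10 (SE 0.36) and 1.17 (SE 0.43), but the female mutant values overlapped with those of the other mice. The adjusted limma p of these 4 interactions was 0.9999. Krt14, given beside Dusp1, moved with Fosb and Atf3 too, without the other keratinocyte markers, and its part was not tested.

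**Figure D3:**
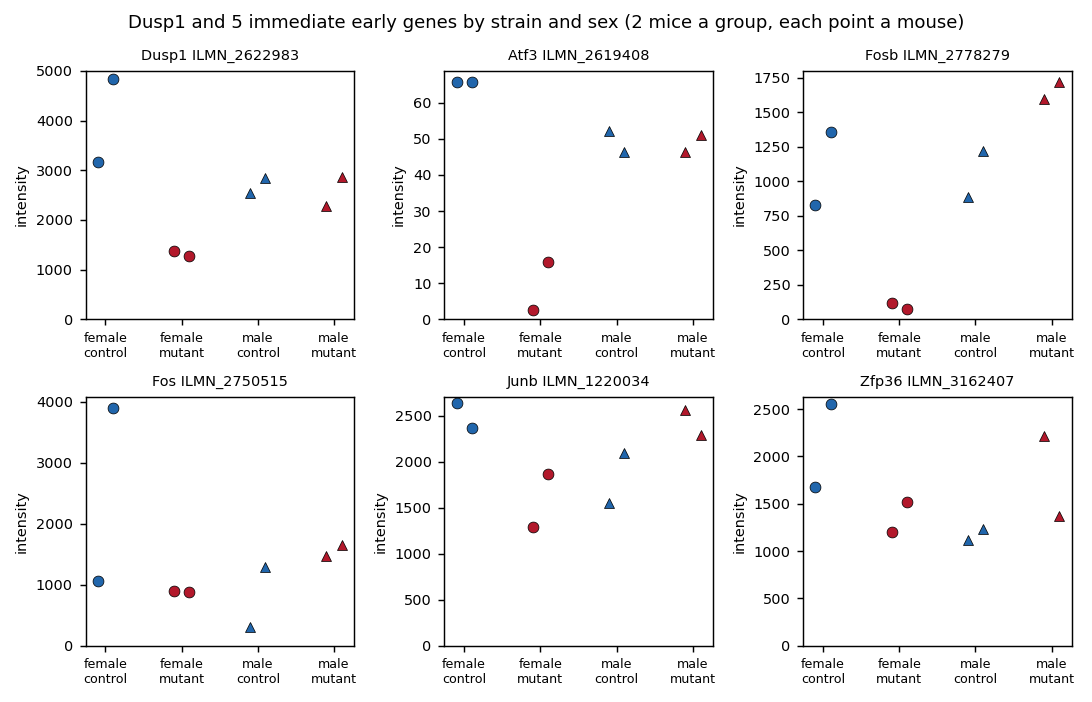
Normalized intensity (linear axes starting at 0) of Dusp1 and of the 5 immediate early genes with an unadjusted interaction p under 0.05, in the 4 groups of strain and sex, each point a mouse (2 per group, control in blue and Nd2 mutant in red). For Dusp1, Atf3 and Fosb both female mutant mice lie below the other 6; for Fos, Junb and Zfp36 they overlap with them.

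The same lists were read between the sexes, with genes named after their values were seen. Of 10 probes of ERK feedback and ERK-induced transcripts, 8 were lower in males, beside 47.6% of all tested probes, with 3 at an unadjusted limma p under 0.05 (30.0% beside 8.31% of all tested probes) and a median of -0.38 beside 0.01 over all tested probes. These 3 were Etv4 (difference -0.64, SE 0.24), Etv5 (difference -0.59, SE 0.21) and Spred1, an inhibitor of the step from RAS to RAF (difference -0.54, SE 0.16). Of 14 probes of MAP2K and MAP3K kinases, 1 (7.14%) passed the unadjusted threshold, that of Map2k3, a kinase of p38, at 779.7 to 904 in males and 1204 to 1502 in females (difference -0.66, SE 0.13). Of 20 probes of immediate early genes, 7 were lower and 2 were higher in males at an unadjusted p under 0.05, or 45.0% beside the same 8.31%. Those lower were 3 probes of Cyr61, a secreted matrix protein (differences of -1.47, -1.37 and -1.16), Egr1 (-0.80), Egr2 (-0.69) and 2 probes of Klf6 (-0.58 and -0.50), and those higher were Fosb (1.94) and Klf4 (0.87). Of 10 probes of atypical phosphatases, 1 (10.0%) passed it, that of Dusp14, which was higher in males (0.69, SE 0.21) and was not detected in mutant mouse 35. In mutant and in control mice, the sex difference was -1.07 and -0.11 for Etv5 and 1.09 and 0.28 for Dusp14. It was -0.74 and -0.59 for Map2k3, -0.69 and -0.59 for Etv4 and -0.61 and -0.48 for Spred1. For Fosb, the sexes overlapped in the control mice and lay apart in the mutant mice only. 0 of the sex differences named here passed the adjusted threshold, with adjusted limma p-values from 0.243 to 0.543. With array weights 7 did, those of Map2k3 (0.00998), Fosb (0.0198), Etv5 (0.0252), Dusp14 (0.0265), Klf4 (0.0308), 1 probe of Cyr61 (0.0317) and Spred1 (0.0435). The share of all tested probes that passed with array weights is not given, so this count has no background beside it.

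**Figure D4:**
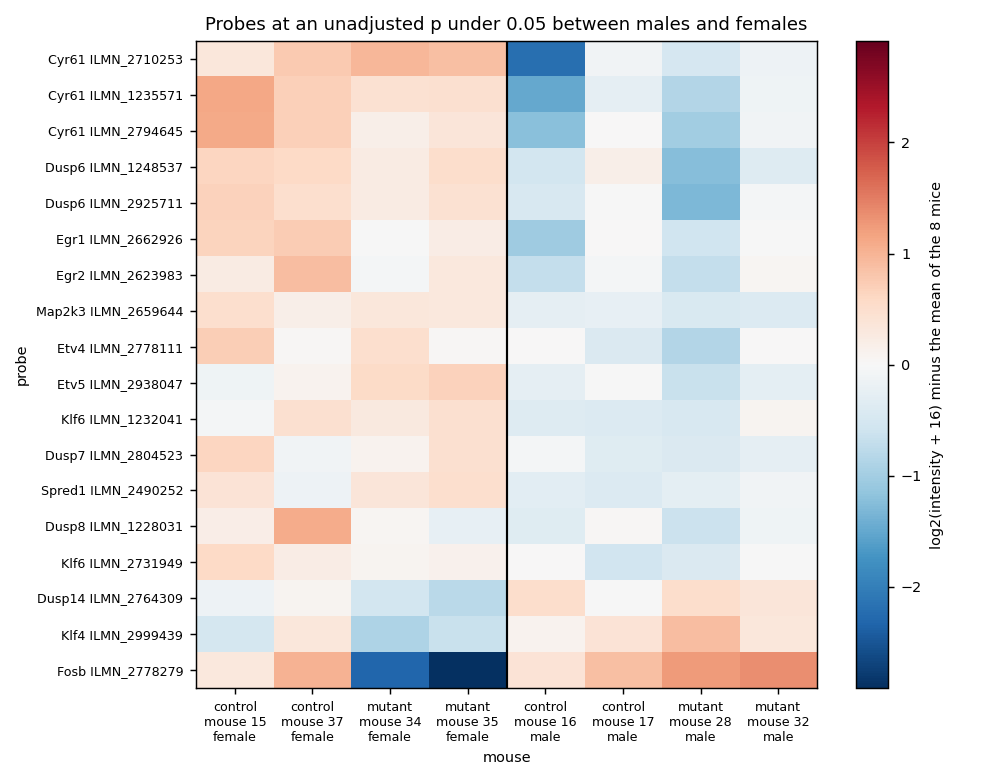
Log2(intensity + 16) of each mouse minus the mean of the 8 mice (colour scale, red above and blue below the mean) for the probes of the phosphatases and their pathway lists with an unadjusted p under 0.05 between males and females, with females left and males right of the line. The probes were chosen by this difference; both Dusp6 probes, Map2k3 and all 3 Cyr61 probes lie higher in all 4 females than in all 4 males.

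Probes of other genes with the pattern most like a member were looked up by Pearson's r of log2 values over the 8 mice, among all 10413 other tested probes. For Dusp1 the 5 nearest were Htt (r = 0.95), Xrcc1 (0.94), Eef1a1 (0.94), Smarcal1 (0.93) and Picalm (0.92). For Dusp6, by ILMN_2925711, they were Tex10 (0.95), Dpp9 (0.94), Stk40 (0.94), Med6 (0.93) and Pdcd2l (0.93). For Dusp10, by ILMN_2818964, they were 1110005A23Rik (0.98), Lrrc15 (0.98), Recql4 (0.96), 9130213B05Rik (0.96) and 1810064F22Rik (0.96). These are the extremes of a search over all probes with 8 points each, so they are given as a description without a test.

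Over the whole series, between 10973 and 11350 probes were detected on the arrays of mutant mice and between 10663 and 10837 on those of control mice, without overlap. Control mouse 15 stood apart, with an average r of 0.934 between its array and the rest, where the other 7 mice averaged 0.963 to 0.974. The macrophage markers summed to 2102 in mutant mouse 35 and to 275 to 667 in the other 7 mice, with Ptprc, the pan-leukocyte marker, detected on no array. The endothelial markers summed to 156 to 297 in mutant and 274 to 821 in control mice, with Kdr, a receptor that defines these cells, detected on no array, and 4 of 6 melanocyte markers with a probe were detected on no array. The part of these differences in the values of the phosphatases was not tested. Without mouse 15 the strain difference of Dusp1 was -0.82 and without mouse 35 it was -0.64.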

How the data were processed

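The 8 MouseRef-8 v2.0 arrays each measured RNA of primary skin fibroblasts from a different mouse, with strain, sex and mouse number taken from the labels. In GenomeStudio, the authors applied quantile normalization and then background subtraction, and every deposited intensity is on the linear scale. Beside each intensity stands a detection p-value, deposited as the authors' software gave it. The 2 deposited tables hold the same bytes, so other normalizations were not run, and 0 columns stayed without a sample.

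Intensities were put on the scale log2(intensity + 16), with negative values taken as 0. Probes with a detection p-value under 0.01 on all 4 arrays of at least 1 strain were tested, 10414 in all, which is the background of every percentage. Differences were tested with limma 3.58.1 in R 4.3.3 (lmFit and eBayes), 2-sided, and p-values were adjusted by Benjamini and Hochberg's method across these 10414 probes, with 0.05 as the threshold. Strains were compared without covariates, sexes with strain as a covariate, and the interaction of both with 4 groups. The number of arrays limits the precision. Single probes were also put through an exact permutation test of 4 against 4 values, and correlations over the 8 mice through exact permutation (scipy 1.17.1). The steps were tested on simulated data.

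All members were named, of each pathway list the probes at an unadjusted p under 0.05 for strain or interaction (otherwise the 2 with the smallest p), and the 5 probes most like Dusp1, Dusp6 and Dusp10. 1 gene under this rule is not reported here. The members and lists were chosen with earlier results of these data known. Each result was recomputed with 1 or 50 added, on the linear scale, and with other detection filters or none. Further fits had sex as a term, array weights, an ordinary t-test on the log2 values or an eBayes trend. Every mouse was also left out once. Promoter windows came from RefSeq tables of build GRCm38.p6; no coordinates of probes were used.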

Additional observations from a re-analysis of the deposited data

How the results depend on the processing

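No paired analysis was possible because no mouse number occurs in both strains. Under every alternative run, 0 member probes passed an adjusted p of 0.05 for strain and for the interaction, and for sex this held except with array weights, where 1 probe passed. The strain difference of Dusp1 in females had an adjusted limma p of 0.205 or higher under every alternative with all 8 mice. Leaving out a female left a single mouse in a group, so only the size, from -1.85 to -1.25, is given for those fits. Outside the group, the interaction of Fosb passed with a trend in eBayes (adjusted limma p 0.0443). Direction was kept under every alternative that tested it by 15 of 33 differences of member probes and by 32 of 33 differences of probes outside the group and of Dusp1 within a sex. Probes outside the group were followed because of a small p in that same comparison, and members whatever their p. The counts therefore cannot be compared. The cause of the changes was not tested. With array weights the strain difference of Dusp7 turned to 0.10 and the sex difference of Dusp4 (ILMN_2689731) to -0.26. On the linear scale the sex difference of Dusp1 turned to -27.7 intensity units and the interaction of Dusp6 (ILMN_2925711) to 37.7. Leaving out single mice turned the sign of several small strain differences, which ranged from -0.27 to 0.19 for Dusp4 (ILMN_2689731), -0.31 to 0.13 for Dusp4 (ILMN_2870965), -0.56 to 0.042 for Dusp6 (ILMN_2925711), -0.23 to 0.13 for Dusp7, -0.28 to 0.063 for Dusp10 (ILMN_2678724) and -0.23 to 0.090 for Dusp1 in males. Sex differences that turned ranged from -0.011 to 0.47 for Dusp1, -0.28 to 0.25 and -0.033 to 0.42 for Dusp4, -0.063 to 0.35 and -0.24 to 0.0074 for Dusp10, and -0.029 to 0.18 and -0.015 to 0.26 for Dusp16. Interactions that turned ranged from -0.83 to 0.045 and -0.84 to 0.43 for Dusp6, -0.53 to 0.18 for Dusp7, -0.67 to 0.37 and -0.49 to 0.13 for Dusp10, and -0.057 to 0.47 for Dusp16.

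The unadjusted count of member probes for strain was 1 as reported, 0 on the linear scale and 0 with an ordinary t-test on the log2 values. With array weights it was 2, and without single mice 0 to 3. For sex it was 4 as reported and 3 to 5 under the alternatives. For the pathway lists it was 7 as reported and 4 with 1 added before log2. The shares of all tested probes under these alternatives are not given, so the counts have no background beside them. With 4 mice a strain, the median 95% interval of a member reached 0.58 on the log2 scale to either side for strain and 1.08 for the interaction, so differences inside these bounds could not be told from 0. The 6 probes detected on no array carry no measured level.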

Other observations

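Among the immediate early genes, 18 of 20 probes had a strain difference below 0 in females, 15 without control mouse 37, beside 46.9% of all tested probes, and Fosb alone of them passed the adjusted threshold in limma. The promoter windows of 11 of 16 of these genes with a RefSeq entry held the core TGACG. The full cAMP response element, which the windows of Dusp1 and Dusp8 also held, was in 1 of 16, Btg2. Over all 32851 windows the shares were 20.8% and 1.79%, counted per window rather than per gene. These are counts of letters and were not related to the expression values by a test.

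In 76 groups of 4 mice examined, each a probe named here in 1 strain, 0 held a mouse set apart from the other 3 by Dixon's test at its 95% critical value. Of independent groups, 1 in 20, or 3.8, would be set apart by chance, but these groups shared the same 8 mice. Each held 2 males and 2 females, so where the sexes lay apart the test could not set 1 mouse apart. The count therefore does not show that no mouse stood apart.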
